A study of Mus musculus with 18 samples.

Results

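The chemokine ligands are the secreted or membrane-tethered proteins whose gradients direct migrating cells, and their genes were chosen by name: every array probe whose accession maps in RefSeq to a mouse protein-coding gene called Ccl, Cxcl, Cx3cl or Xcl with a number. The rule found 36 genes, read by 40 probes, among 34289 gene names on the array, and 3 further genes of this kind (Ccl9, Ccl21d and Ccl27b) had no probe. Signals were read in 6 groups of 3 samples: mouse embryonic stem (ES) cells cultured with leukemia inhibitory factor (LIF) and without feeder cells, the isogenic ED cells grown from them without LIF until stem cell markers were lost, and the irradiated counterparts of both, which had received 10 Gy of ionizing radiation (IR) and were named ESRE and EDRE when harvested 15 min later and ESRL and EDRL when harvested 4 h later. All cells were untreated apart from IR, the differentiation was undirected and ED cells are therefore not 1 defined cell type, and the samples called replicates are not said to be separate differentiations, so that p-values measure the spread between these samples, which may be technical. The comparisons asked how ED cells differed from ES cells before and after IR, how each cell type changed after IR, and whether those changes differed between the cell types.

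Chemokines bind receptors of the Ccr, Cxcr, Cx3cr and Xcr families on leukocytes and other cells. They are grouped by the spacing of their first cysteines into CC (Ccl), CXC (Cxcl), CX3C (Cx3cl) and C (Xcl) ligands. Inflammatory members such as Ccl2 and Cxcl1 are made on demand by fibroblasts, epithelium and macrophages, and NF-kB is a well-known activator of their genes. Homeostatic members such as Cxcl12, Ccl19 and the Ccl21 copies are made steadily in stroma and lymphoid tissue. Many of the genes arose by tandem duplication and lie side by side, so that neighbors on a chromosome are often close relatives.

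The promoters of 3 such neighbors and of Ccl20 are shown because they hold the same kind of NF-kB motif. By the rule given below, Cxcl1 and Ccl20 were called higher in unirradiated ED cells. Cxcl3 was not called, and Cxcl2 could not be tested. Cxcl10, which also holds the motif, is not shown. Promoter sequence from RefSeq (build GRCm38.p6) was matched to 25 of the 36 genes, and 11 had none (Ccl2, Ccl4, Ccl5, Ccl7, Ccl11, Ccl21c, Ccl24, Ccl26, Cxcl5, Cxcl16 and Cxcl17). In the 250 bases before the start of transcription, on either strand, the NF-kB motif was found in 5 of the 25 (Ccl20, Cxcl1, Cxcl2, Cxcl3 and Cxcl10) and in 4.46% of the 27025 genes in the RefSeq promoter table. The interferon response element ISRE, searched as GAAANNGAA, was found in 6 of the 25 (Ccl1, Ccl3, Ccl19, Cxcl9, Cxcl10 and Cxcl14) against 8.18% of all genes, and the AP-1 motif TGANTCA in 2 (Ccl27a and Cxcl10) against 7.82%. A match is a description of these letters and not a bound site. Each sequence below is the 110 bases before the start, 5′ to 3′ on the strand of the gene, with the NF-kB match in capitals.
Cxcl1 (chr5:90891135-90891244, plus strand): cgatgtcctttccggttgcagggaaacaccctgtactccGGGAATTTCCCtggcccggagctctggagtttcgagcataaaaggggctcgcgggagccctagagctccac
Cxcl2 (chr5:90903789-90903898, plus strand): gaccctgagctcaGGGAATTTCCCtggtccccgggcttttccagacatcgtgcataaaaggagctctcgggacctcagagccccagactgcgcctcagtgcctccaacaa
Cxcl3 (chr5:90785991-90786100, plus strand): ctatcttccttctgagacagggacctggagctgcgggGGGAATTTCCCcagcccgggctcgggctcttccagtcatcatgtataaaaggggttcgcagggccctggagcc
Ccl20 (chr1:83116656-83116765, plus strand): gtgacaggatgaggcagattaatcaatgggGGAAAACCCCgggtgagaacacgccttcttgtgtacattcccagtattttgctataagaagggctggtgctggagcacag
The 3 Cxcl genes carry the identical run GGGAATTTCCC, in which the motif matches on both strands 1 base apart, at bases -71 to -61 in Cxcl1, -97 to -87 in Cxcl2 and -73 to -63 in Cxcl3, counted back from the start. Ccl20 carries GGAAAACCCC at bases -80 to -71.

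Values are log2 signals minus the 75th percentile of their array, which makes 0 the brightness of that percentile, and 1 unit is a 2-fold difference of the same probe. Values of different probes are not compared. Differences come from 1 limma model of all 18 arrays, with their standard error (SE), and p is adjusted by the Benjamini-Hochberg method over all probes tested in a comparison. A gene was called where a probe had an adjusted p under 0.05 and a log2 difference over 1 in size, and a probe was tested where every array of 1 or more of the groups compared read it well above background. Replicates 2 and 3 of EDRE stand apart: their 75th percentile was 875 and 1155 against 1952 to 4268 on the other arrays, 24.4% and 23.8% of their spots were marked as outliers by the scanner software and left out, and many ligand probes were not well above background there. Replicate 1 of ESRL was the only array read on another scanner. Its 75th percentile was 1952, and 63.3% of its probes were well above background. Slides, read as arrays that share a scan time, held no group together with its unirradiated control, so that slide and IR cannot be told apart. The ED and ES groups compared under the same condition shared no slide either. Slide and cell type can therefore not be told apart within those comparisons. Values of several probes, copies or isoforms can share signal: Ccl21a, Ccl21b and Ccl21c are near-identical copies, Ccl27a has the unmeasured copy Ccl27b and overlaps Il11ra1, and the annotated ranges of Ccl3 and Ccl4, of Cxcl16 and Zmynd15, and of Cxcl10 and Art3 overlap.

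**Figure D1:**
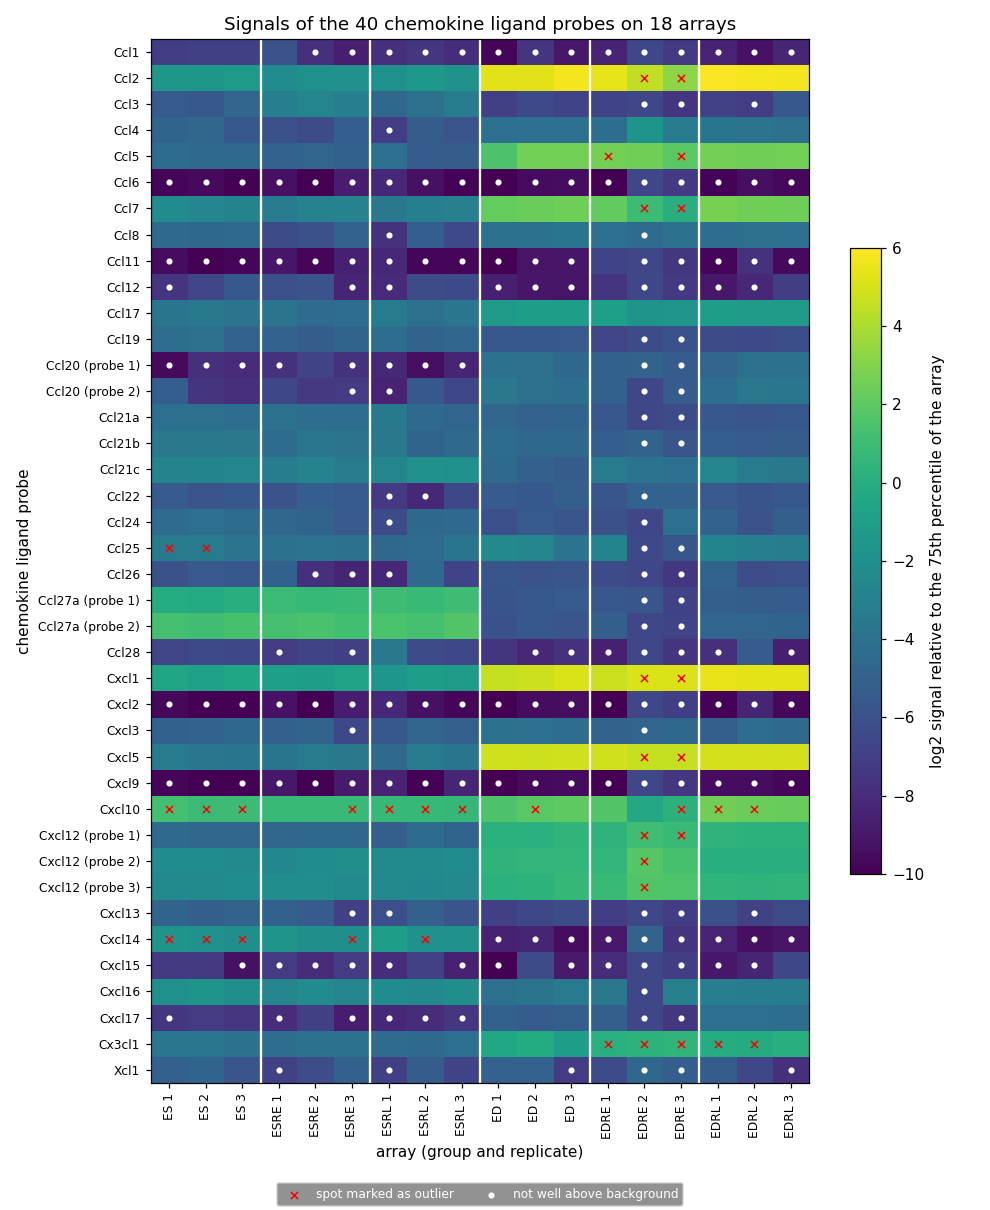
Log2 signal minus the array's 75th percentile of the 40 chemokine ligand probes (rows) on the 18 arrays (columns, 3 per group). Crosses mark spots left out as outliers and dots mark signals not well above background; the ED, EDRE and EDRL columns are bright for Ccl2, Ccl5, Ccl7, Cxcl1, Cxcl5 and Cxcl12 and dark for Ccl27a and Cxcl14.

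In unirradiated ED cells 10 ligand genes were called higher than in ES cells and 8 lower, of 28 tested. The 10 that rose were Ccl2, Ccl5, Ccl7, Ccl17, Ccl20, Cx3cl1, Cxcl1, Cxcl5, Cxcl12 and Cxcl17, and the 8 that fell were Ccl1, Ccl3, Ccl19, Ccl21c, Ccl24, Ccl27a, Cxcl13 and Cxcl16. Of all 26228 genes tested, 41.5% were called (14.9% higher and 26.7% lower), so that calls were common throughout. The arrays of the 2 groups did not overlap for 71.1% of the genes with a probe measured on all of them. The median log2 difference was 0.69 over the ligand probes and -0.19 over all probes tested. The direction of the small changes depends on the scaling: the median of all probes was 0.46 with arrays scaled to their median and 0.22 after quantile normalization, and the ligand calls were then 13 higher with 2 lower and 14 higher with 2 lower. Calls over all genes shifted upward too. They were 45.1% of those tested with median scaling (6971 higher and 4876 lower) and 42% after quantile normalization (5697 higher and 5336 lower). Because these are bulk RNA samples, more or fewer expressing cells and more or less RNA per cell cannot be told apart.

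The neutrophil attractants Cxcl1 and Cxcl5, ligands of Cxcr2, gave some of the widest differences. Cxcl5 read -3.43, -3.74 and -3.8 on the ES arrays and 4.84, 4.77 and 4.84 on the ED arrays. It was 356-fold higher in ED cells (log2 difference 8.47, SE 0.221, adjusted p = 6.39e-12) and the 2 groups lay far apart. Cxcl1 read -0.6, -0.84 and -0.56 in ES and 4.62, 4.78 and 5.08 in ED cells, also without overlap. The rise was 45-fold (log2 difference 5.49, SE 0.175, adjusted p = 3.27e-11). Their relatives in the same stretch of chromosome 5 were not called. Cxcl2 lies next to Cxcl1, and both Cxcl2 and Cxcl3 hold the NF-kB run printed above. Cxcl3 read -5.06, -5 and -4.59 in ES and -4.02, -4.13 and -4.27 in ED cells. It was tested and not called (log2 difference 0.74, SE 0.361, adjusted p = 0.103), although every ED array lay above every ES array. Cxcl2 was not well above background on any of the 18 arrays, and Cxcl15 was so on 5 of them. Neither gene was tested here, so that a change in either cannot be told from these probes. Ppbp, which lies between Cxcl5 and Cxcl3 together with Pf4, was tested here as a platelet chemokine and neither gene was called in unirradiated cells. Ppbp was called higher in EDRE than in ESRE cells, where 18.6% of all genes were.

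The monocyte attractants Ccl2 and Ccl7, ligands of Ccr2 that lie next to each other on chromosome 11, rose together. Ccl2 read -1.55, -1.56 and -1.4 in ES and 5.28, 5.29 and 5.71 in ED cells. This was 122-fold (log2 difference 6.93, SE 0.176, adjusted p = 5.01e-12). Ccl7 read -2.28, -2.58 and -2.86 in ES and 2.23, 2.32 and 2.44 in ED cells, and its groups did not overlap either. It was 30-fold higher (log2 difference 4.9, SE 0.215, adjusted p = 6.4e-10). The genes that follow them in the same row were not called higher, and Ccl11 and Ccl12 were not tested. Ccl11 (an eosinophil attractant) and Ccl12 (a monocyte attractant) were in no group well above background on all arrays. Ccl8, another monocyte attractant, read -4.53, -4.66 and -4.52 in ES and -4.02, -3.99 and -3.76 in ED cells and was not called (log2 difference 0.65, SE 0.462, adjusted p = 0.271). Ccl1, a ligand of Ccr8 at the end of the row, read -7.12, -6.97 and -6.96 in ES cells, and -9.77, -7.59 and -9 in ED cells, where it was not well above background. It was at least 1.39-fold lower there, a bound from the lowest signals that count as above background. That bound is under the 2-fold limit. The call rests on the fitted difference (log2 difference -1.77, SE 0.643, limma adjusted p = 0.0317), which uses ED signals not well above background. Where a p is given with a bound below, it likewise belongs to the fitted difference. Ccl1 lost its call when any array of ES, or replicate 1 or 3 of ED, was left out, with differences between -2.37 and -1.28.

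In the other row of CC genes on chromosome 11, Ccl5 rose and Ccl3, nearby, fell. Ccl5, which attracts T cells and monocytes, read -4.32, -4.52 and -4.45 in ES and 1.52, 2.6 and 2.6 in ED cells. The rise was 102-fold (log2 difference 6.67, SE 0.328, adjusted p = 1.92e-09) and replicate 1 of ED was about 1 unit below the other 2. Ccl3, a macrophage inflammatory protein, read -5.47, -5.58 and -4.81 in ES and -6.97, -6.48 and -6.8 in ED cells, with no overlap. It was 2.75-fold lower (log2 difference -1.46, SE 0.409, adjusted p = 0.00751). Ccl4, a close relative and the next neighbor, read -4.87, -4.72 and -5.65 in ES and -4.14, -4.18 and -4.16 in ED cells and was not called (log2 difference 0.92, SE 0.552, adjusted p = 0.188). Ccl6 was not well above background on any array.

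**Figure D2:**
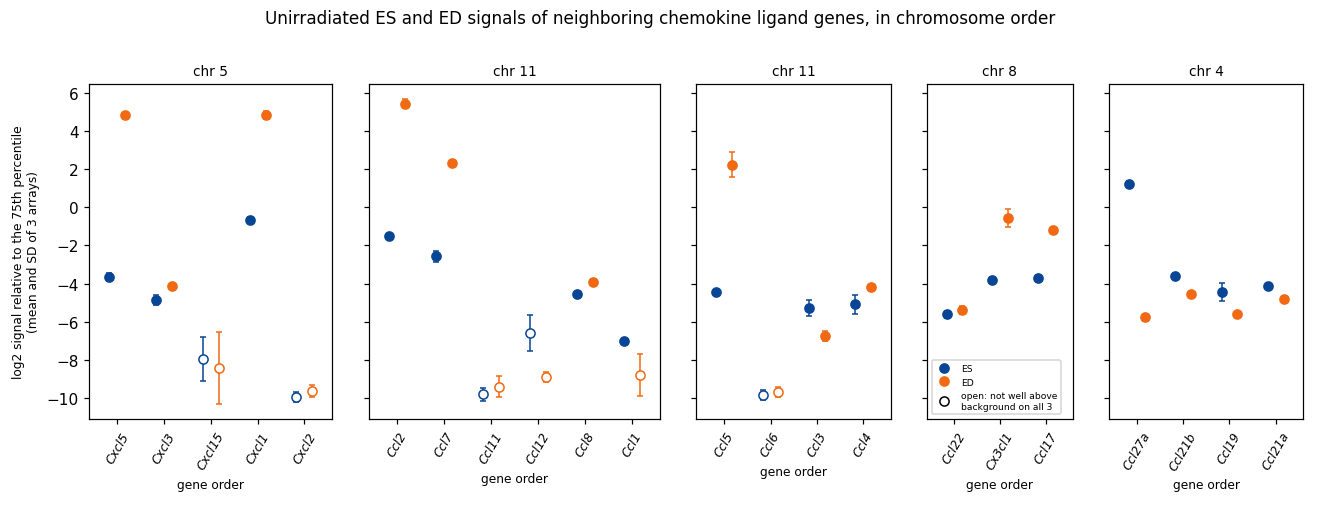
Mean log2 signal with SD (n = 3 arrays) in unirradiated ES and ED cells for ligand genes that lie near each other, in chromosome order from left to right; open points were not well above background on all 3 arrays. Within 1 row, Cxcl5 and Cxcl1, Ccl2 and Ccl7, or Ccl5 are far higher in ED cells, while Cxcl2, Ccl11 and Ccl6 stay at background; heights of different genes come from different probes and are not comparable.

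On chromosome 8 the neighbors Cx3cl1 and Ccl17 rose and Ccl22, beside them, did not pass the test. Cx3cl1 (fractalkine), the membrane-tethered ligand of Cx3cr1, read -3.74, -3.72 and -3.96 in ES and -0.44, -0.18 and -1.12 in ED cells. It was 9.34-fold higher in ED cells (log2 difference 3.22, SE 0.239, adjusted p = 6.11e-07). Ccl17, a ligand of Ccr4 on T cells, read -3.78, -3.53 and -3.83 in ES and -1.39, -1.09 and -1.09 in ED cells, so that both genes separated the groups fully. The rise was 5.76-fold (log2 difference 2.53, SE 0.225, adjusted p = 1.88e-07). Ccl22, the other Ccr4 ligand, read -5.4, -5.77 and -5.67 in ES and -5.41, -5.58 and -5.16 in ED cells, where the groups overlapped (log2 difference 0.24, SE 0.336, adjusted p = 0.614).

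Cxcl12, the stromal ligand of Cxcr4 that holds hematopoietic stem cells in the bone marrow, rose on all 3 of its probes. The probe with the highest mean read -2.39, -2.41 and -2.24 in ES and 0.23, 0.34 and 0.68 in ED cells. It was 6.79-fold higher (log2 difference 2.76, SE 0.188, adjusted p = 2.05e-08), and the other 2 probes gave 30.7-fold and 7.19-fold, so that the size depends on the probe. Ccl20, which attracts Ccr6-bearing lymphocytes and dendritic cells, has 2 probes. On the one with the higher mean it read -5.21, -7.57 and -7.79 in ES and -3.66, -4.12 and -4.21 in ED cells, with 1 ES array well above the other 2. The rise was 7.25-fold (log2 difference 2.86, SE 0.695, adjusted p = 0.00287) on that probe. On the other probe, dim in ES cells, it was at least 11.5-fold higher (adjusted p = 1.05e-06). Cxcl17, a mucosal chemokine, read -7.44, -7.14 and -7.46 in ES cells and -5.05, -5.36 and -5.15 in ED cells. This was 4.47-fold (log2 difference 2.16, SE 0.47, adjusted p = 0.00124).

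**Figure D3:**
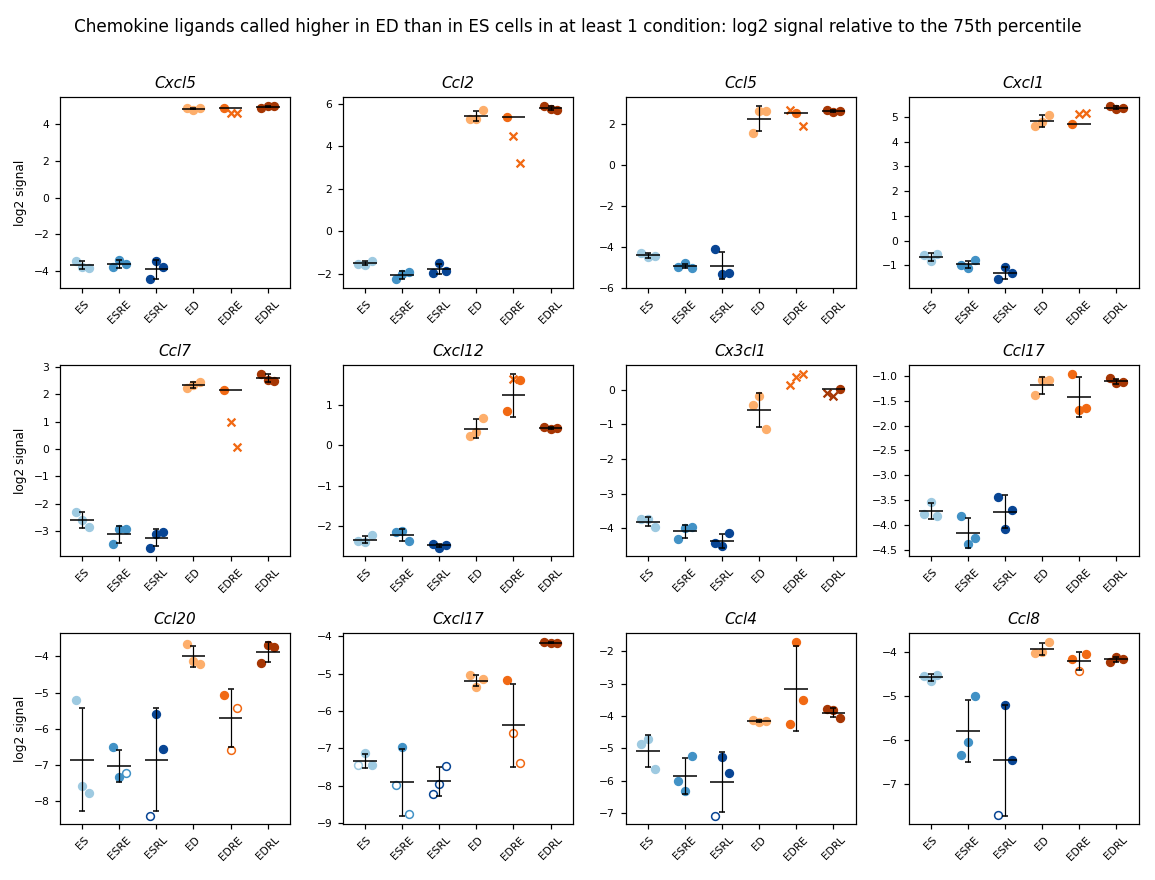
Log2 signal (minus the array's 75th percentile) of 12 ligand genes called higher in ED than in ES cells in at least 1 condition, 1 point per array; lines and bars are the mean and SD of the arrays used, open points were not well above background and crosses were left out as outliers. For Cxcl5, Ccl2, Ccl5, Cxcl1 and Ccl7 the ED groups lie more than 4 units above every ES group; the scale differs between panels.

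Among the ligands tested the largest fall was that of Ccl27a, a skin chemokine and ligand of Ccr10. Its brighter probe read 1.26, 1.1 and 1.33 in ES and -5.96, -5.61 and -5.76 in ED cells. It was 129-fold lower in ED cells (log2 difference -7.01, SE 0.305, adjusted p = 6.67e-11), and the other probe was 46.5-fold lower. Cxcl14, a chemokine of epithelia whose receptor is debated, could not be tested in unirradiated cells, since its 3 ES spots, at -1.74, -1.89 and -2.03, were marked as outliers. Its ED spots read -8.52, -8.36 and -9.46, none of them well above background, and with the marked spots kept it was at least 48.6-fold lower in ED cells. Both genes were thus well above background on every ES array, and Cxcl14 on none of the ED arrays.

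Of the 4 measured ligands of the lymph node receptor Ccr7, Ccl21c and Ccl19 were called lower in ED cells, and Ccl21a and Ccl21b were not called. Ccl21c read -2.83, -2.8 and -2.66 in ES and -4.47, -5.09 and -5.31 in ED cells. It was 4.57-fold lower (log2 difference -2.19, SE 0.301, adjusted p = 1.88e-05). Ccl19 read -4.22, -4.1 and -4.98 in ES and -5.66, -5.57 and -5.55 in ED cells. It was 2.24-fold lower (log2 difference -1.16, SE 0.247, adjusted p = 0.00103), a call that was lost without replicate 2 of ES (log2 difference -1). The copies Ccl21a (-4.15, -4.07 and -4.2 in ES and -4.69, -4.98 and -4.82 in ED cells) and Ccl21b (-3.62, -3.58 and -3.64 and -4.35, -4.59 and -4.68) were lower on every ED array than on every ES array, by less than the limit of 1 unit (log2 difference -0.69, SE 0.281, adjusted p = 0.0525 and log2 difference -0.93, SE 0.288, adjusted p = 0.0138).

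The other ligands that fell did so by smaller amounts. Cxcl16, the transmembrane ligand of Cxcr6, read -1.97, -1.7 and -2.03 in ES and -4.12, -3.86 and -3.49 in ED cells (log2 difference -1.92, SE 0.605, adjusted p = 0.015). Cxcl13, the B cell attractant, read -4.84, -5.17 and -4.88 in ES and -7, -6.52 and -6.28 in ED cells (log2 difference -1.64, SE 0.418, adjusted p = 0.004). Ccl24, an eosinophil attractant, read -4.39, -4.13 and -4.32 in ES and -6.08, -5.44 and -5.81 in ED cells (log2 difference -1.49, SE 0.556, adjusted p = 0.0356). The groups did not overlap for any of the 3. The calls of Ccl1, Ccl3, Ccl19, Ccl24, Cxcl13 and Cxcl16 were lost when arrays were scaled to their median, quantile normalized or read from the deposited matrix. Ccl24 also lost its call without any 1 array of ES, or without replicate 1 or 3 of ED (log2 differences -1.66 to -1.34), and Cxcl16 without replicate 1 of ED.

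Of the remaining ligands, 6 were measured well above background throughout some group and never called: Ccl25 (a thymus and gut chemokine, -6.48, -3.88 and -2.45), Ccl26 (-8.33, -6.05 and -4.55), Ccl28 (a mucosal chemokine, -8.63, -6.84 and -3.57), Cxcl3 (-6.52, -4.81 and -4.02), Cxcl10 (the interferon-induced ligand of Cxcr3, -0.35, 1.5 and 2.26) and Xcl1 (lymphotactin, -7.81, -5.53 and -4.65), with the lowest, median and highest value over the arrays used. Cxcl10 was well above background on all 18 arrays, but 11 of its spots were marked as outliers, among them all of ES and ESRL, so that its difference between ED and ES cells was not tested. The marked ES spots were at 1.2, 0.93 and 0.99, and the 2 ED arrays in use read 1.5 and 2. The 6 others (Ccl6, Ccl11, Ccl12, Cxcl2, Cxcl9 and Cxcl15) were in no group well above background on all arrays. Ccl6, Cxcl2 and Cxcl9, the latter another interferon-induced Cxcr3 ligand, were so on no array at all.

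The difference between the cell types was also present after IR. At 15 min (EDRE against ESRE), 9 ligand genes were called higher and 7 lower of 21 tested, against 46.6% of all genes called (18.6% higher and 28.1% lower) and 57.3% without overlap. At 4 h (EDRL against ESRL), 13 were called higher and 7 lower of 26 tested, against 49.4% (24.5% higher and 25% lower) and 68.2% without overlap. The median log2 difference of the ligand probes was 0.06 at 15 min and 1.91 at 4 h, beside -0.17 and 0.06 over all probes. Ccl2, Ccl5, Ccl7, Ccl17, Cxcl1, Cxcl5 and Cxcl12 were called higher, and Ccl3, Ccl19 and Ccl27a lower, in all 3 comparisons of ED with ES cells, and no gene was called in opposite directions. The 3 comparisons use different arrays. With arrays scaled to their median, the calls were 10 higher and 4 lower at 15 min and 13 higher and 4 lower at 4 h. With replicates 2 and 3 of EDRE left out, a choice made after seeing the data, 10 genes were called higher and 7 lower at 15 min.

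Among the neutrophil attractants, Cxcl5 read -3.78, -3.37 and -3.61 in ESRE and -4.44, -3.46 and -3.79 in ESRL cells, and 4.86 on replicate 1 of EDRE, the only EDRE array not marked as an outlier, and 4.88, 4.95 and 4.96 in EDRL cells. Cxcl1 read -1, -1.09 and -0.8 in ESRE, -1.57, -1.08 and -1.31 in ESRL, 4.7 on replicate 1 of EDRE and 5.44, 5.33 and 5.34 in EDRL cells. At 4 h, Cxcl5 was 454-fold and Cxcl1 103-fold higher in ED cells (log2 difference 8.83, SE 0.219, adjusted p = 2.69e-12 and log2 difference 6.69, SE 0.172, adjusted p = 3.6e-12). Neither gene came near to overlapping between the cell types. The 15 min differences of Cxcl1, Cxcl5, Ccl2, Ccl5 and Ccl7 rest on 1 EDRE array each, which the fit takes to vary like the other groups.

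Among the CC ligands, Ccl2 read -2.26, -2 and -1.92 in ESRE, -1.96, -1.49 and -1.86 in ESRL, 5.4 on replicate 1 of EDRE and 5.91, 5.78 and 5.73 in EDRL cells. Its spots on replicates 2 and 3 of EDRE, left out as outliers, were at 4.49 and 3.24. Ccl7 read -3.46, -2.93 and -2.91 in ESRE, -3.59, -3.08 and -3.04 in ESRL, 2.14 on replicate 1 of EDRE and 2.74, 2.5 and 2.49 in EDRL cells. The Ccl7 spots on replicates 2 and 3 of EDRE, also left out as outliers, were at 0.99 and 0.09. Every EDRE and EDRL spot of the pair, left out or not, lay above every ESRE and ESRL array. The size of the EDRE difference rests on 1 array for each gene and is uncertain, since the left-out spots were lower. Ccl5 read -4.97, -4.81 and -5.02 in ESRE, -4.14, -5.34 and -5.29 in ESRL, 2.53 on replicate 2 of EDRE and 2.64, 2.54 and 2.62 in EDRL cells. At 4 h, Ccl2 was 191-fold, Ccl5 184-fold and Ccl7 56.2-fold higher in ED cells (log2 difference 7.58, SE 0.173, adjusted p = 1.33e-12, log2 difference 7.53, SE 0.326, adjusted p = 3.92e-10 and log2 difference 5.81, SE 0.212, adjusted p = 7.77e-11).

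Ccl4 and Ccl8 were called higher in ED cells at both times after IR and not before it, and the test of that change was not passed by either gene. Before IR, every ED array already lay above every ES array for both genes. Ccl4 read -6.01, -6.33 and -5.24 in ESRE, -7.08, -5.28 and -5.77 in ESRL, -4.25, -1.71 and -3.5 in EDRE and -3.79, -3.82 and -4.07 in EDRL cells (log2 difference 2.71, SE 0.548, adjusted p = 0.00062 at 15 min and log2 difference 2.15, SE 0.549, adjusted p = 0.00341 at 4 h). Ccl8 read -6.35, -6.04 and -4.99 in ESRE, -7.72, -5.19 and -6.46 in ESRL, -4.14, -4.42 and -4.03 in EDRE and -4.22, -4.11 and -4.15 in EDRL cells (log2 difference 1.6, SE 0.458, adjusted p = 0.00798 and log2 difference 2.3, SE 0.459, adjusted p = 0.000518). In both genes the irradiated ES arrays reached lower values than the unirradiated ones. The tests of the change gave log2 difference 1.79, SE 0.78, adjusted p = 0.233 for Ccl4 at 15 min and log2 difference 1.65, SE 0.653, adjusted p = 0.249 for Ccl8 at 4 h. With slide as a random block both genes lost their 4 h call (adjusted p = 0.0605 for Ccl4 and 0.0686 for Ccl8).

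The stromal and T cell ligands Cxcl12 and Ccl17 were again higher in ED cells. Cxcl12 read -2.16, -2.13 and -2.39 in ESRE, -2.45, -2.54 and -2.48 in ESRL, 0.86 and 1.62 on replicates 1 and 3 of EDRE and 0.45, 0.4 and 0.44 in EDRL cells (log2 difference 3.47, SE 0.206, adjusted p = 3.89e-09 and log2 difference 2.92, SE 0.186, adjusted p = 7.5e-09). Ccl17 read -3.82, -4.39 and -4.26 in ESRE, -3.43, -4.09 and -3.7 in ESRL, -0.96, -1.69 and -1.64 in EDRE and -1.05, -1.14 and -1.13 in EDRL cells (log2 difference 2.73, SE 0.222, adjusted p = 5.46e-08 and log2 difference 2.63, SE 0.223, adjusted p = 8.19e-08). Both genes kept the cell types apart at both times. Cx3cl1 read -4.29, -3.99 and -3.97 in ESRE and -4.42, -4.51 and -4.14 in ESRL cells, had all EDRE spots marked as outliers (at 0.15, 0.36 and 0.46) and 1 usable EDRL array at 0.01 (log2 difference 4.37, SE 0.333, adjusted p = 6.01e-07). Ccl20 read -6.51, -7.33 and -7.22 in ESRE, -8.4, -5.58 and -6.57 in ESRL, -5.06, -6.59 and -5.43 in EDRE and -4.19, -3.68 and -3.75 in EDRL cells (log2 difference 2.98, SE 0.692, adjusted p = 0.00172 at 4 h), and it was not tested at 15 min. Cxcl17 read -7.99, -6.97 and -8.76 in ESRE, -8.23, -7.96 and -7.47 in ESRL, -5.18, -6.59 and -7.39 in EDRE and -4.15, -4.17 and -4.19 in EDRL cells. Its signal was not well above background in ESRL cells, and it was at least 7.28-fold higher in EDRL cells (adjusted p = 6.27e-06), with no test at 15 min.

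**Figure D4:**
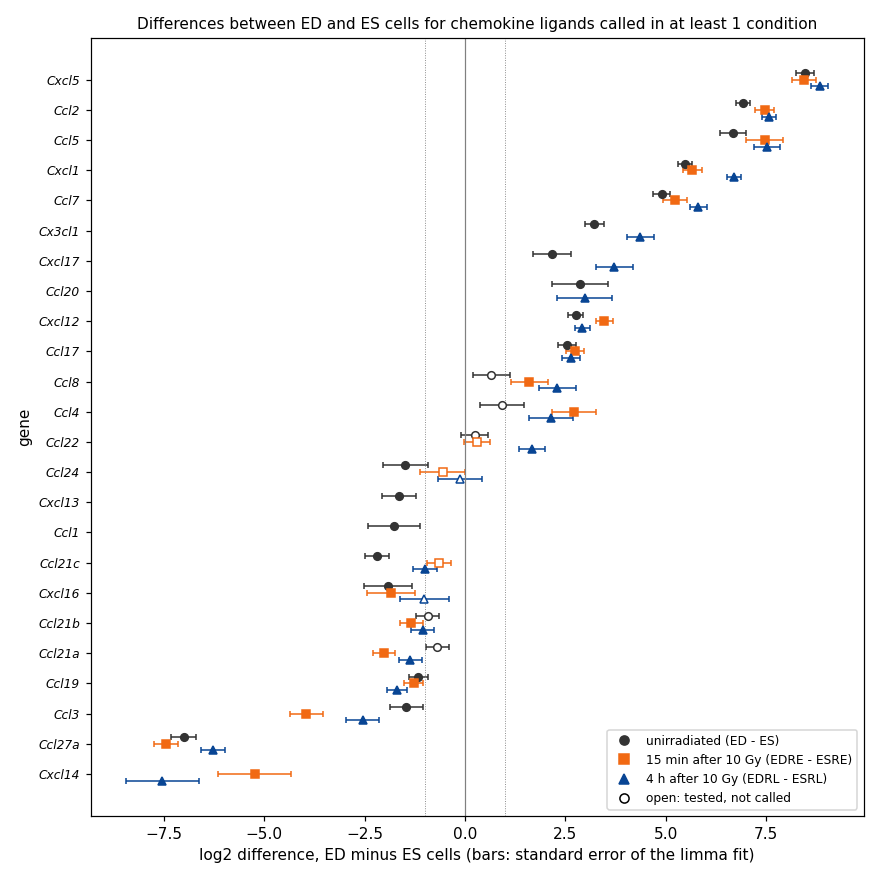
Log2 difference between ED and ES cells (x axis, with the SE of the limma fit) for the 24 ligand genes called in at least 1 of the 3 conditions, drawn for the probe described in the text; filled points were called, open points were tested and not called, and untested differences are left out. Cxcl5, Ccl2, Ccl5, Cxcl1 and Ccl7 lie beyond 4 units to the right and Ccl27a lies beyond -5 units to the left, in every condition; the points of Cxcl14 rest on signals not well above background in ED cells, for which the text gives bounds.

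Of the ligands lower in ED cells, Ccl27a read 1.27, 1.42 and 1.16 in ESRE, 1.47, 1.25 and 1.64 in ESRL, -5.16, -6.59 and -6.76 in EDRE and -4.77, -4.81 and -4.86 in EDRL cells. It was 77.2-fold lower at 4 h (log2 difference -6.27, SE 0.302, adjusted p = 1.47e-10). At 15 min it was also called lower (log2 difference -7.45, SE 0.301, adjusted p = 2.51e-11), but replicate 1 of EDRE alone was well above background, so that the size of this difference is uncertain. Cxcl14 read -1.72 and -2.03 on replicates 1 and 2 of ESRE and -1.03 and -1.82 on replicates 1 and 3 of ESRL, and -8.93, -4.89 and -7.53 in EDRE and -8.38, -9.35 and -9.15 in EDRL cells, where it was not well above background on any array. It was at least 20.9-fold lower at 15 min (adjusted p = 0.000472) and at least 67.1-fold lower at 4 h (adjusted p = 2.69e-05).

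Of the Ccr7 ligands, Ccl19, Ccl21a and Ccl21b were called lower in ED cells at both times after IR, and Ccl21c at 4 h but not at 15 min, where its groups overlapped (log2 difference -0.65, SE 0.297, adjusted p = 0.0778). Ccl19 read -4.98, -5.29 and -4.86 in ESRE, -4.25, -4.9 and -4.71 in ESRL, -6.67, -6.34 and -5.98 in EDRE and -6.34, -6.44 and -6.16 in EDRL cells (log2 difference -1.28, SE 0.244, adjusted p = 0.00036 and log2 difference -1.69, SE 0.245, adjusted p = 2.65e-05). Ccl21b read -4.33, -3.7 and -3.83 in ESRE, -3.58, -4.82 and -4.46 in ESRL, -5.23, -4.88 and -5.77 in EDRE and -5.21, -5.49 and -5.29 in EDRL cells (log2 difference -1.34, SE 0.284, adjusted p = 0.000896 and log2 difference -1.05, SE 0.285, adjusted p = 0.00521). Both separated the cell types at each time. In EDRE cells, however, Ccl19, Ccl21a and Ccl21b were well above background on replicate 1 alone. The size of their 15 min differences is therefore uncertain, and with normexp background correction these differences turned to 0.63, 0.14 and 0.21. Ccl21a at 4 h (log2 difference -1.36, SE 0.279, adjusted p = 0.00065) and Ccl21b at 4 h were not called without replicate 1 of ESRL (-0.98 and -0.7), the array scanned on a slide and a scanner of its own, and Ccl21b not without replicate 2 of EDRL. Ccl21c at 4 h (log2 difference -1, SE 0.298, adjusted p = 0.00898) lost its call without replicate 2 or 3 of either group (differences from -1.26 to -0.82). Cxcl16 read -2.73, -2.31 and -2.7 in ESRE, -2.19, -2.35 and -2.06 in ESRL, -3.66, -6.59 and -3.03 in EDRE and -3.16, -3.24 and -3.24 in EDRL cells, and its call at 15 min (log2 difference -1.84, SE 0.601, adjusted p = 0.0165) was lost without replicate 2 of EDRE, where it read -6.59 like several other dim probes of that array, or without replicate 2 of ESRE (-2.54 to -0.76). Ccl24 was tested and not called after IR, and Cxcl13 was not tested there. Ccl24 read -4.75, -4.82 and -5.52 in ESRE, -6.37, -4.68 and -4.56 in ESRL, -6.03, -6.59 and -4.14 in EDRE and -4.96, -5.88 and -5.15 in EDRL cells. Cxcl13 read -5.01, -5.38 and -6.94 in ESRE, -6.1, -5.07 and -5.76 in ESRL, -7.07, -6.59 and -7.07 in EDRE and -6.05, -6.88 and -6.3 in EDRL cells, and Ccl1 lay between -9.2 and -5.92 on the irradiated arrays, 1 of which was well above background.

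Few ligand genes were called after IR. In ES cells 15 min after IR, 1 of 27 tested was called, against 0.463% of all genes (0.29% higher and 0.173% lower), and 36% of genes had groups without overlap. This was Ccl3, which read -3.13, -2.75 and -3.16 in ESRE cells beside the ES values above, a rise of 4.85-fold without overlap (log2 difference 2.28, SE 0.409, adjusted p = 0.0222). At 4 h it read -4.65, -4.12 and -3.26 and was not called (log2 difference 1.28, SE 0.409, adjusted p = 0.0661). The 15 min call was lost when any 1 of the 6 arrays of ES and ESRE was left out, with differences between 2.13 and 2.52. Its neighbor Ccl4 gave log2 difference -0.78, SE 0.551, adjusted p = 0.786 in the same comparison. In ED cells Ccl3 read -6.73, -6.59 and -7.58 in EDRE and -6.92, -7.1 and -5.67 in EDRL cells, and it was well above background on 1 EDRE and 2 EDRL arrays.

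In ES cells 4 h after IR, 1 ligand was called higher and 2 lower of 27 tested, against 7.59% of all genes (0.691% higher and 6.9% lower), and 35.4% of genes had groups without overlap. Ccl22 read -5.88, -5.2 and -5.5 in ESRE and -7.32, -8.2 and -6.52 in ESRL cells, where replicate 3 alone was well above background. It was 3.31-fold lower than in ES cells (log2 difference -1.73, SE 0.336, adjusted p = 0.00691), and the groups did not overlap. Ccl8 was 3.7-fold lower (log2 difference -1.89, SE 0.461, adjusted p = 0.022), with the values given above. Its call was lost without replicate 1 of ESRL (-1.26), the lowest array, and without any 1 ES array. Ccl27a rose on its dimmer probe, which read -0.1, -0.2 and 0.04 in ES, 0.89, 0.72 and 0.86 in ESRE and 1.04, 0.75 and 1 in ESRL cells (log2 difference 1.01, SE 0.26, adjusted p = 0.0268). Its brighter probe gave log2 difference 0.22, SE 0.304, adjusted p = 0.715, so that the probes disagreed on the size, and the call was lost without any 1 array of ES or without replicate 1 or 3 of ESRL (0.96 to 1.11). In irradiated ED cells Ccl22 read -5.69, -4.99 and -5 in EDRE and -5.53, -5.85 and -5.66 in EDRL cells, and it was called higher in EDRL than in ESRL cells (log2 difference 1.67, SE 0.334, adjusted p = 0.000525), a call that was lost with slide as a random block (adjusted p = 0.0772).

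In ED cells, Ccl21c was called higher at both times after IR. It read -3.35, -3.92 and -4.14 in EDRE and -2.72, -3.32 and -3.57 in EDRL cells, all above the 3 unirradiated ED arrays. It rose 2.22-fold by 15 min (log2 difference 1.15, SE 0.297, adjusted p = 0.0354) and 3.37-fold by 4 h (log2 difference 1.75, SE 0.297, adjusted p = 0.00433). In ES cells it read -3.19, -2.84 and -3.46 in ESRE and -2.71, -1.89 and -2 in ESRL, which gave log2 difference 0.57, SE 0.3, adjusted p = 0.265 at 4 h. The 4 h call in ED cells held without any 1 array of ED or EDRL, with differences from 1.51 to 2, while the 15 min call was lost without replicate 2 or 3 of ED, any 1 EDRE array, any 1 ES array or replicate 2 of EDRL (0.93 to 1.4). Its copy Ccl21a went the other way: it read -5.64, -6.59 and -6.37 in EDRE and -5.63, -5.79 and -5.57 in EDRL cells, beside -4.06, -4.23 and -4.27 in ESRE and -3.56, -4.55 and -4.81 in ESRL cells. It was called lower at 15 min (log2 difference -1.37, SE 0.277, adjusted p = 0.0156), a call that was lost without replicate 1 of ED or without replicate 2 or 3 of EDRE, and that turned to 0.68 with normexp. At 4 h it was not called (log2 difference -0.83, SE 0.278, adjusted p = 0.159). The remaining copy, Ccl21b, was also lower without a call (log2 difference -0.75, SE 0.284, adjusted p = 0.106 at 15 min and log2 difference -0.79, SE 0.284, adjusted p = 0.2 at 4 h). Neither Ccl21a nor Ccl21b was well above background on replicates 2 and 3 of EDRE. In all, 2 of 25 ligands tested were called at 15 min in ED cells, against 5.2% of all genes (2.23% higher and 2.97% lower), and 1 of 26 at 4 h, against 1.66% (1.4% higher and 0.254% lower). Groups without overlap were found for 26.1% of genes at 15 min and 46.1% at 4 h. With slide as a random block, 0 ligand genes were called by limma after IR in either cell type, and of all genes tested 0% were called in ES cells at either time and 0.00446% and 0.142% in ED cells at 15 min and 4 h.

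**Figure D5:**
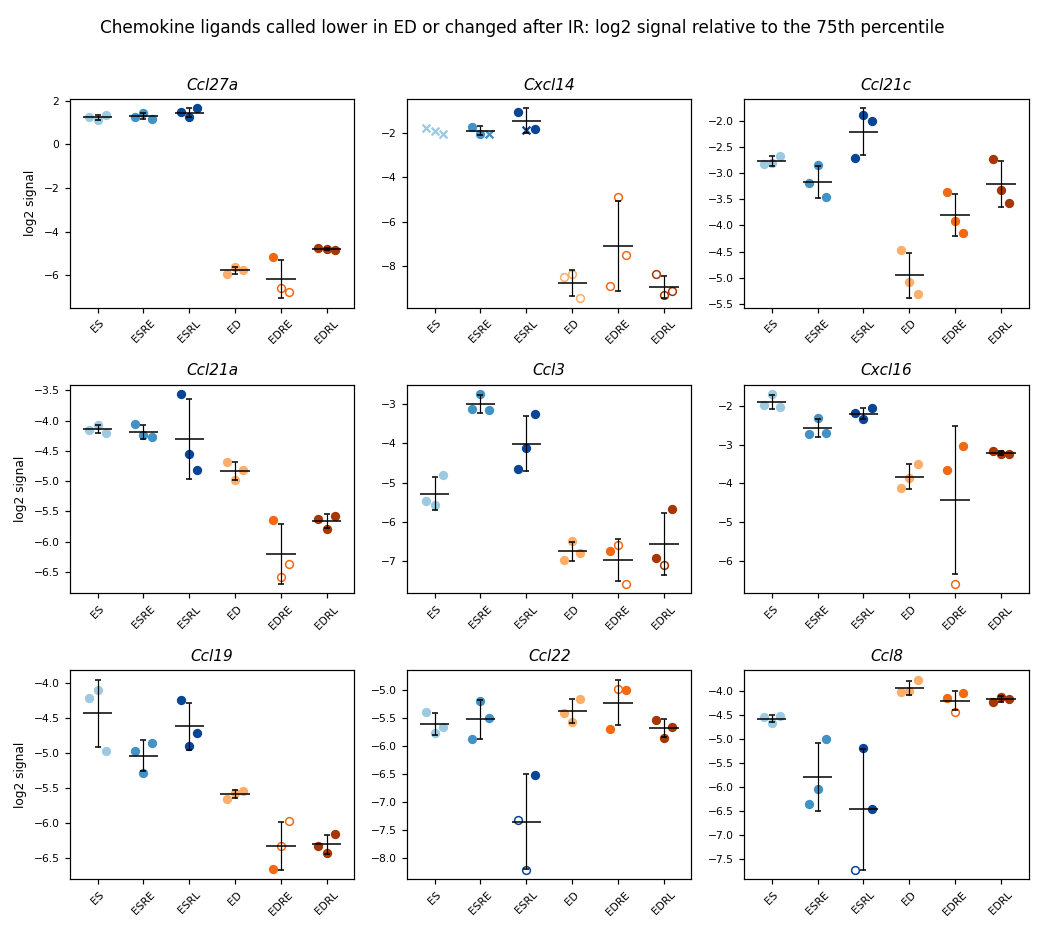
Log2 signal (minus the array's 75th percentile) of 9 ligand genes called lower in ED cells or changed after IR, 1 point per array with the mean and SD of the arrays used; open points were not well above background, crosses were left out as outliers, and the scale differs between panels. Ccl3 is higher on the 3 ESRE arrays than on the 3 ES arrays, Ccl22 lower in ESRL than in ES, and Ccl21c higher in EDRE and EDRL than in ED.

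The change after IR differed between the cell types for 1 ligand at each time. At 15 min this was Ccl3, of 27 tested and against 2.09% of all genes (1.24% higher and 0.85% lower): the change in ED cells minus that in ES cells was log2 difference -2.49, SE 0.579, adjusted p = 0.0438. At 4 h it was Cxcl1, of 28 tested and against 1.16% (0.911% higher and 0.246% lower): the change in ED minus that in ES cells was log2 difference 1.2, SE 0.248, adjusted p = 0.0408. Cxcl1 had moved by log2 difference 0.55, SE 0.17, adjusted p = 0.137 in ED cells and by log2 difference -0.65, SE 0.174, adjusted p = 0.0369 in ES cells, each under the 1 unit limit. Both interactions were lost in most fits that left out 1 array: Ccl3 kept its call in 1 of the 12 fits that left out an array of its own groups, and Cxcl1 in 3 of 12, with differences of -2.73 to -2.19 and 1.07 to 1.33. Both were also lost without some arrays of other groups, which share the estimate of the spread: Ccl3 without replicate 1 of EDRL, and Cxcl1 without any 1 ESRE array.

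The genes around the ligands were described with lists chosen for this pathway. Of 23 chemokine receptors, 18 were tested in unirradiated cells, 2 were called higher in ED cells and 8 lower (median log2 difference -0.6). Of all genes, 41.5% were called in this comparison (14.9% higher and 26.7% lower). Cxcr6 and Cxcr5 were higher, by 2.9-fold and 2.75-fold. Cxcr4, the receptor of Cxcl12, was 10.8-fold lower in ED cells (log2 difference -3.43, SE 0.568, adjusted p = 0.000121), and Cxcr2, the receptor of Cxcl1 and Cxcl5, was 4.51-fold lower. Ackr1, Ackr2, Ackr4, Ccr4, Ccr7 and Ccrl2 were also lower. Ccr2, the receptor of Ccl2 and Ccl7, was not tested, nor were Ccr1, Ccr3 and Xcr1, being well above background on all arrays of neither group. Between irradiated cells, 1 receptor was called higher and 6 lower of 16 tested at 15 min, and 4 higher and 3 lower of 14 at 4 h. The shares of all genes called were 46.6% and 49.4%. After IR, Ccr8, Ccr9 and Cxcr3, of 18 tested, fell in ES cells at 4 h, against 6.9% of all genes called lower. Limma called 0 receptors in ES cells at 15 min or in ED cells at 15 min and 4 h (1, 2 and 0 at an unadjusted p under 0.05).

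Of 14 genes of the NF-kB pathway, 11 were tested: Rela (3.13-fold), Nfkbiz (6.37-fold on 1 of 3 probes that all rose) and Ikbkb were higher and Bcl3 lower in ED cells. Between irradiated cells 4 of the 11 were higher and 2 lower at 15 min, and 3 higher at 4 h. For this list and those below, the share of all genes called was 41.5% in unirradiated cells (14.9% higher and 26.7% lower). It was 46.6% at 15 min (18.6% higher) and 49.4% at 4 h (24.5% higher). Of 10 other inflammatory cytokines, 8 were tested, with Il6 (31.9-fold) and Csf1 (9.56-fold on 1 of 3 probes that all rose) higher and Il33 and Tnf lower. Of 13 interferon-induced genes, 11 were tested and 7 were higher in ED cells (8 of 11 at both times after IR), among them Ifit1 (16.3-fold) and Isg15 (8.81-fold), while Cxcl9, induced by interferon gamma, was at background. In the comparisons within a cell type after IR, 0 of the interferon-induced genes were called by limma, with 2 or 3 of the 10 or 11 tested at an unadjusted p under 0.05. Ikbkg, of 11 NF-kB pathway genes tested, was called lower in EDRE against ED, beside 2.97% of all genes. Lif, of 6 cytokines tested, was called higher in EDRL against ED, beside 1.4%. The other genes of these lists were not called there. For Relb, of 10 tested, the 15 min change in ED minus that in ES cells was called lower, beside 0.85% of all genes.

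Markers of several cell types also differed between ED and ES cells. All 7 tested markers of pluripotent stem cells were lower in ED cells, with summed signals of 568 to 579 on the ES arrays and 4.98 to 5.8 on the ED arrays, in units of the 75th percentile. A sum adds different probes, so that the brightest weigh most in it. Of the 8 pluripotency markers, 6 were still well above background on every ED array, and Zfp42 was so on none. Of 9 fibroblast and mesenchyme markers 7 were higher in ED cells (sums of 34.4 to 36.5 in ES and 335 to 427 in ED), Col1a1 and Col3a1 among them, and Thy1 was lower. Of 9 leukocyte markers on the array, 5 of 8 tested were lower in ED cells (13.3 to 14.6 in ES and 0.484 to 0.567 in ED), and the defining marker Ptprc was not well above background on any ES or ED array. All 6 endothelial markers were lower in ED cells (5.34 to 6.63 in ES and 0.103 to 0.194 in ED). Of all genes tested, 14.9% were called higher and 26.7% lower. Whether a change in the kinds of cells present had a part in the ligand differences was not tested. On the 1 slide that held both cell types, with the 3 ED arrays and replicate 3 of ESRE, all 10 ligands called higher in ED cells were higher on every ED array than on that ESRE array, and 5 of the 8 called lower were lower on every ED array (all but Ccl1, Ccl24 and Cxcl13). These genes had been chosen by calls that used the same 3 ED arrays, and the ES side is 1 irradiated array. The share of all genes that keep their side there was not computed, so that these counts are no separate check on slide. With slide as a random block, 10 ligands were called higher and 1 lower in unirradiated ED cells, against 20.9% of all genes, and Ccl2, Ccl5, Ccl7, Ccl17, Cx3cl1, Cxcl1, Cxcl5, Cxcl12, Cxcl17 and Ccl27a were among those that remained. Ccl20 on the probe with the higher mean (adjusted p = 0.427), Ccl21c (adjusted p = 0.0527), Ccl1, Ccl3, Ccl19, Ccl24, Cxcl13 and Cxcl16 lost their calls there. With the same block 9 ligands were called higher and 6 lower at 15 min after IR, against 33.3% of all genes, and 10 higher and 5 lower at 4 h, against 33.4%. The described probes that lost their calls were those of Cxcl16 at 15 min and of Ccl4, Ccl8, Ccl20, Ccl21b, Ccl21c and Ccl22 at 4 h.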

How the data were processed

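RNA of 18 samples (6 groups of 3) was read on one-colour Agilent arrays. Per the file headers, the deposited intensity values are the processed signals of Feature Extraction (version 10.7.3.1, while the labels give 9.1), background-subtracted for each spot, with no scaling across arrays. A matrix of log2 values normalized by the authors, whose centring is not stated, served as an alternative.

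Control spots and 200 further negative spots were removed, spots marked as outliers were left out, and log2 signals were taken minus the 75th percentile of each array. Differences were fitted with limma 3.58.1 in R 4.3.3 over all 18 arrays by group means, with Benjamini-Hochberg adjustment over all probes tested, and a gene was called if any of its probes was. The script was tested on simulated data. The probe described for a gene is the one with the highest mean among those called in any comparison, and every ligand gene is accounted for. The members and all gene lists were chosen with earlier results of these data known. Same-numbered replicates were not paired: 3 of 21 pairs had deviations that correlated above 0.1 (range -0.24 to 0.18).

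Alternatives were normexp background correction with an offset of 50 (on median spot signals, since mean signals were not used here), scaling to the median, quantile normalization, the deposited matrix, no filter or a stricter one, outlier spots kept, slide or replicate number as a block, only the groups compared, the methods' t-test, no fold limit, 1 probe per gene, and each array left out. An outlier mark or a dim signal removes or bounds a value. Precision is limited by having 3 arrays a group.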

Additional observations from a re-analysis of the deposited data

Results flagged for a closer look

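The change of Ccl3 15 min after IR differed between the cell types: the change in ED cells minus the change in ES cells was -2.49 (SE 0.579, limma adjusted p = 0.0438). The change of Cxcl1 at 4 h differed in the other direction, by 1.2 (SE 0.248, limma adjusted p = 0.0408). Both were picked out because the difference between the cell types itself passed the test. With slide as a random block neither was called. In EDRE cells Ccl3 was well above background on 1 array alone, so that the size of its change in ED cells is uncertain. Ccl3 kept its call in 1 of the 12 fits without an array of its own groups, and Cxcl1 in 3 of 12.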

How the results depend on the processing

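The rises of Ccl2, Ccl5, Ccl7, Ccl17, Cx3cl1, Cxcl1, Cxcl5 and Cxcl12 and the fall of Ccl27a in unirradiated ED cells kept their call under all alternatives run. Of all recomputed differences of single called ligands, 1682 kept their direction and call, 212 kept the direction and lost the call, and 4 reversed. The 4 reversed with normexp: Ccl19 (0.63), Ccl21a (0.14) and Ccl21b (0.21) in EDRE against ESRE and Ccl21a (0.68) in EDRE against ED. The cause was not tested for any change given here.

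Counts of ligands called were 18 in ED against ES, 16 in EDRE against ESRE and 20 in EDRL against ESRL. Higher and lower calls were 14 and 3 in the deposited matrix and 9 and 3 with normexp in ED against ES, 11 and 4 in the matrix and 9 and 2 with normexp in EDRE against ESRE, and 15 and 4 in the matrix in EDRL against ESRL. With slide as a random block the count was 11 in ED against ES, and with the stricter filter 8 in EDRE against ESRE and 13 in EDRL against ESRL. Of all genes, the matrix called 44.8%, 54% and 55.4% in these 3 comparisons, in the same order. Normexp called 30.7% in ED against ES and 38.4% in EDRE against ESRE. The slide block called 20.9% in ED against ES. The stricter filter called 40% in EDRE against ESRE and 43.9% in EDRL against ESRL.

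After IR, slide as a block gave 0 in all 4 comparisons and both interactions. In ESRE against ES (main count 1), normexp and quantile normalization gave 0, and the methods' t-test gave 2 unadjusted and 0 adjusted. Of all genes these called 0.255%, 0.67%, 2.97% and 0.701%. In ESRL against ES (3), normexp, only the groups compared and the adjusted t-test gave 0, and quantile normalization and the stricter filter 1. Of all genes these called 0.297%, 1.59%, 0.0552%, 3.72% and 2.84%. In EDRE against ED (2), normexp, the matrix and outlier spots kept gave 4, quantile normalization and the stricter filter 1, and only the groups compared, the adjusted t-test and leaving out both EDRE replicates 2 and 3 (added after seeing the data) 0. Of all genes, normexp, the matrix and outlier spots kept called 13.8%, 9.88% and 7.46% in EDRE against ED. In EDRL against ED (1), normexp gave 0, and only the groups compared and the unadjusted t-test 2. Of all genes these called 0.62%, 3.61% and 3.78%. The 15 min interaction (1) was 0 with normexp, no filter, the stricter filter and without both EDRE replicates. The 4 h interaction (1) was 0 with normexp, median scaling, the matrix, no filter and outlier spots kept, and 2 with only the groups compared. The last of these called 3.01% of all genes. The t-test was not run for interactions. With the replicate number as a block, both interactions gave 0 and no other count moved by over 1.5 times.

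Leaving out 1 array gave 15 to 18 calls in ED against ES, 14 to 17 in EDRE against ESRE, 18 to 21 in EDRL against ESRL, 0 to 1 in ESRE against ES (0 without any ES or ESRE array), 1 to 4 in ESRL against ES (1 without any ES array), 0 to 7 in EDRE against ED (7 without EDRE replicate 1, 0 without EDRE replicate 2 or 3, and 1 without any ES or ED array or EDRL replicate 2), 1 in EDRL against ED, 0 to 8 in the 15 min interaction (8 without EDRE replicate 1, 3 without ESRL replicate 1) and 0 to 2 in the 4 h interaction (2 without ESRL replicate 2 or 3). The higher counts without EDRE replicate 1 came with many calls throughout. Of all genes, 31.9% were then called in EDRE against ED and 29.5% in the 15 min interaction.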
